A study of Mus musculus with 6 samples.

Results

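The integrin genes of mouse splenocytes described here are the 10 that encode the adhesion receptors most characteristic of leukocytes and platelets. They were Itgal, Itgam, Itgax, Itgb2, Itga4, Itgb7, Itgb1, Itgae, Itgb3 and Itga2b, picked by symbol from a table of 56413 symbols, and all 10 were found. Ribosomal-RNA-depleted total RNA was sequenced from fresh splenocytes, in 3 samples of the wild type (WT) and 3 of the Top3b knockout (Top3b-KO). The knocked-out gene encodes topoisomerase III-beta, and the question posed was how its loss bears on immune dysregulation and tumour formation. The labels give no strain, age, treatment or knockout design, nor say that replicates were separate animals. The p-values between genotypes thus set a difference against the spread of the 3 libraries within each genotype. That spread may not be the one between animals.

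An integrin is a heterodimer of 1 alpha and 1 beta chain that spans the membrane and grips ligands on other cells or in the matrix. Beta2 (Itgb2) pairs with alphaL (Itgal) on nearly all leukocytes, with alphaM (Itgam) mainly on myeloid and natural killer cells, and with alphaX (Itgax), best known from dendritic cells. Alpha4 (Itga4) pairs with beta1 (Itgb1) to bind VCAM-1, or with beta7 (Itgb7) to bind the gut addressin MAdCAM-1. AlphaE (Itgae) pairs with beta7 to bind E-cadherin, and alphaIIb (Itga2b) with beta3 (Itgb3) forms the platelet fibrinogen receptor. Talin and kindlin-3, recruited through Rap1, switch these receptors to their high-affinity state.

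Total counts ranged from 9941014 to 25473404 per library, with the fewest in Top3b-KO replicate 3. Values are given as CPM, depth-scaled counts with TMM factors, with standard deviations over 3 libraries. Top3b itself was 91.0 ± 4.06 CPM in WT against 49.8 ± 1.66 CPM in the knockout (SD, n = 3). The library labels therefore match the direction of the deletion, although Top3b counts were not lost in full. The sum of 8 B cell markers lay between 3690 and 4319 CPM and that of 8 T cell markers between 1224 and 1408 CPM. All 10 integrin genes passed the filter on low counts.

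Itgam and Itgax are shown by their upstream sequence because these neighbours on chromosome 7 encode partners of the same beta chain and had differences of opposite sign between the genotypes. Each line gives the 250 bases before the RefSeq transcription start of build GRCm38.p6, plus strand, 5′ to 3′, at chr7:128062390-128062639 for Itgam and chr7:128129300-128129549 for Itgax. Capitals mark matches on either strand to the ETS-type word GAGGAA or the GATA-type word AGATAA, each of 6 bases. Other forms of these motifs were not searched, and the letters ggaa occur unmarked in both windows.
Itgam: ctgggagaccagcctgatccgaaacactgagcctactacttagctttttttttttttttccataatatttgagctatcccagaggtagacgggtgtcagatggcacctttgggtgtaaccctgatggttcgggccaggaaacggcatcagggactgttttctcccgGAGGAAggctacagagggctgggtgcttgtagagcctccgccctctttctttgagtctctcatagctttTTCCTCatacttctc
Itgax: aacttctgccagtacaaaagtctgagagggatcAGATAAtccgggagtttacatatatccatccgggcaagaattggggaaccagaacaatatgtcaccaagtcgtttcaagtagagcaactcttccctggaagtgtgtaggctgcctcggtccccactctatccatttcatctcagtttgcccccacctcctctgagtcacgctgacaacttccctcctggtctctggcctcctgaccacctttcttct
The Itgam window held 2 matches to the ETS-type word GAGGAA and 0 to the other. At least 1 match to GAGGAA occurs in 23.3% of 32851 windows of this length, and the share with 2 was not computed. The Itgax window held 1 match to the GATA-type word AGATAA, which 9.99% of windows hold at least once, and 0 to the ETS-type word. Of the other members, the Itga2b window also held 2 matches to GAGGAA and the Itgb1 window 1. The motifs were read on both strands and do not overlap each other in these windows. These matches are a description of letters, and 6 of the 10 genes had an entry in the sequence table.

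Levels of the 10 genes were compared per length. Divided by the length of the longest coding transcript, Itgb7 was highest at 142 CPM per kb over the 6 libraries, followed by Itgb2 at 131 and Itgal at 119. Each of these exceeded the level per kb of at least 98.0% of the 17377 tested genes with a length. Itgb7 was above Itgb2, and Itgb2 above Itgal, in 6 of 6 libraries, but by only 1.08-fold and 1.10-fold per kb on average, and their ranges over libraries overlapped.

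A middle group followed at 80.5 CPM per kb for Itgb1 and 69.4 for Itga4. Itgal exceeded Itgb1 by 1.48-fold with no overlap, whereas Itgb1 exceeded Itga4 by 1.16-fold in 5 of 6 libraries with overlapping ranges. The levels depend on the length used. For Itga4 the longest coding transcript has 9767 bases and the annotated exons together 13978, and for Itga2b these are 3437 and 5454. The lower levels were 23.7 CPM per kb for Itgax, 14.8 for Itgb3, 12.2 for Itgae, 5.04 for Itgam and 2.13 for Itga2b. No neighbours among these last 5 overlapped across the libraries. Itga2b was above 29.7% of those 17377 genes only. With all annotated exons as the length, Itgal was at 94.7 CPM per kb, Itga4 at 48.5 and Itga2b at 1.34, and the order of the 10 genes was the same.

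**Figure D1:**
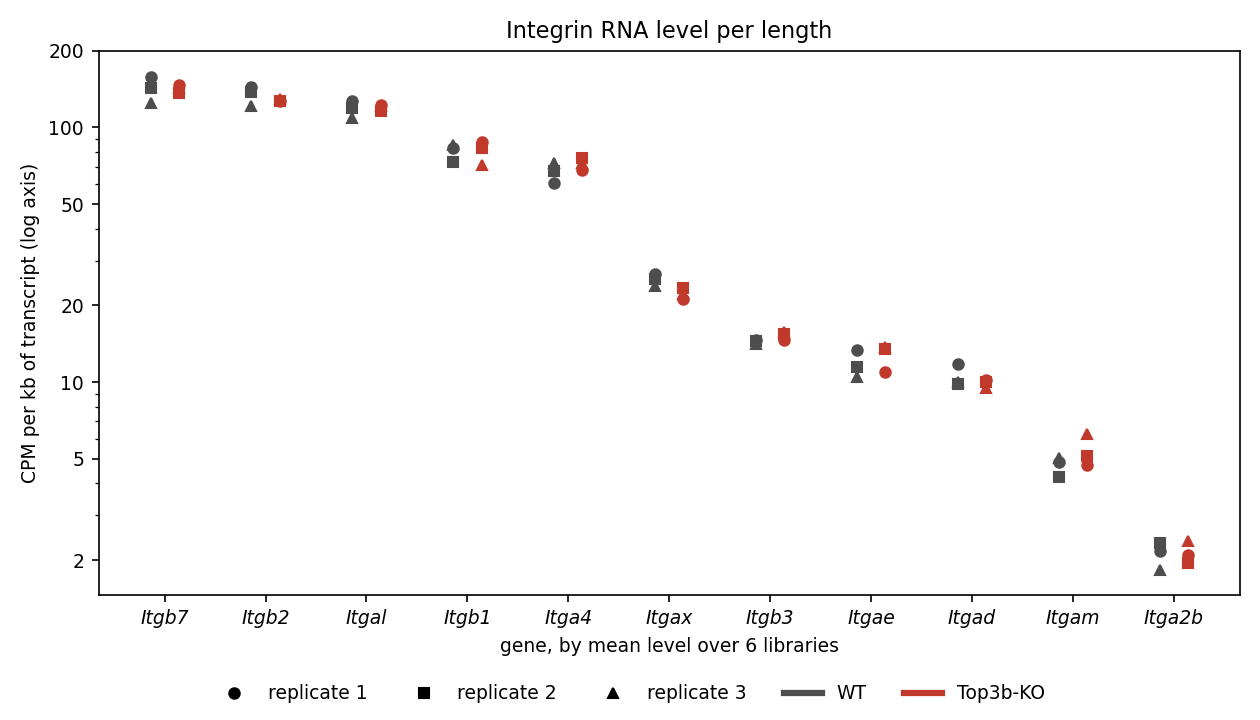
Level of each integrin gene in CPM per kb of its longest coding transcript (vertical log axis), by gene in order of the mean over 6 libraries, with 1 point per library (grey WT, red Top3b-KO, marker shape the replicate number). Itgad, a further beta2 partner outside the 10 genes, is drawn for scale at 10.2 CPM per kb, and Itgb7, Itgb2, Itgal, Itgb1 and Itga4 lie above all the other genes in every library.

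The Itgam level per length is uncertain. In the GENCODE M21 annotation, 3450 of its 5024 exon bases (68.7%) also belong to Gm49368, a gene on the same strand that begins with Itgam exons. No source used here states how reads shared by 2 genes were counted. Gm49368 itself had between 5 and 16 counts per library, and Itgam between 289 and 603. If reads from shared bases had been dropped, the counts would stem from the 1574 unshared bases, and Itgam would stand at 15.0 CPM per kb, against 4.69 over all its exons and 5.04 over its longest coding transcript. On that unshared length it would pass Itgb3 at 14.5 and Itgae at 10.3, so its place in the order is uncertain too. For scale, the widely expressed kinase gene Ilk, of whose exon bases 76.7% are shared with Taf10 on the opposite strand, had between 0 and 4 counts. Among the other members, Itga4 shared 8.04% of its exon bases with Cerkl on the opposite strand, and the remaining 8 shared none with another annotated gene.

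No integrin of the 10 passed the test between genotypes. In edgeR's quasi-likelihood test, adjusted by Benjamini-Hochberg over 18716 genes, 0 of 10 had an adjusted p under 0.05, where 0.0107% of all tested genes passed. At an unadjusted p under 0.05 there was 1 of 10, Itgax, which was lower, where 3.69% of all tested genes were lower at that level and 5.52% passed in either direction. DESeq2 and limma-voom each gave 0 of 10 adjusted and 1 of 10 unadjusted. The 10 log2 fold changes, Top3b-KO over WT, ran from -0.18 to 0.17 with 7 above and 3 below 0 and a median of 0.015, against -0.0029 for all tested genes. The groups did not overlap for 2 of 10 genes: Itgax was lower in every knockout library, as were 5.63% of all tested genes, and Itgb3 higher, as were 5.39%, though Itgb3 overlapped with total-count scaling.

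**Figure D2:**
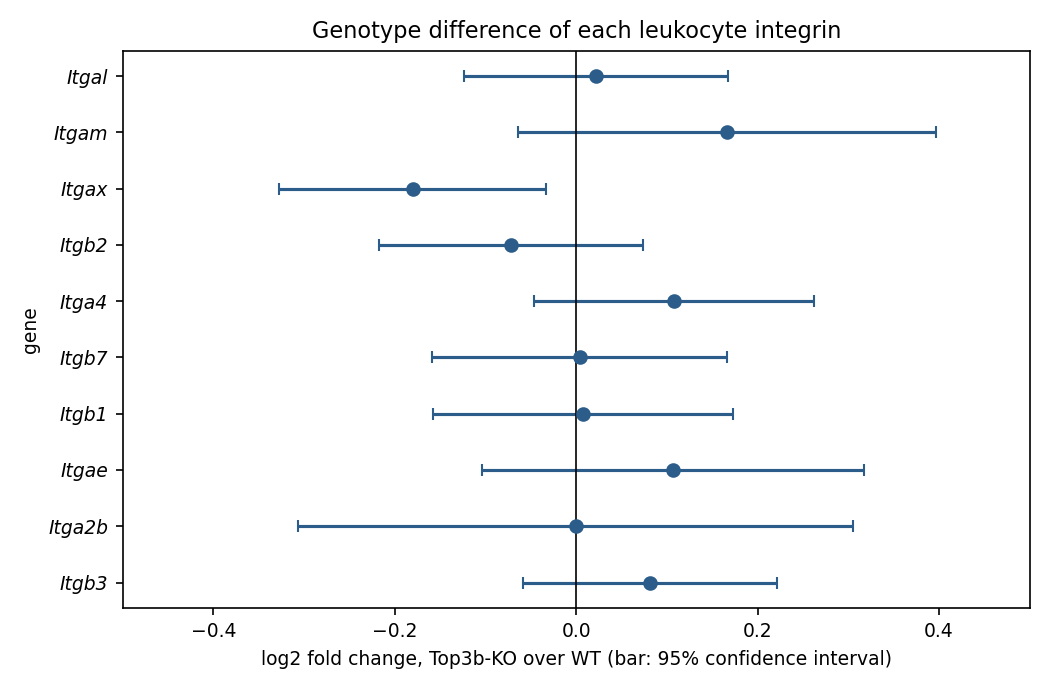
Log2 fold change of each of the 10 integrin genes, Top3b-KO over WT (horizontal axis), with its 95% confidence interval from edgeR's quasi-likelihood fit. The points lie between -0.18 and 0.17, and the unadjusted interval of Itgax, from -0.33 to -0.034, is the one that does not cross 0.

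Itgal, the alpha chain of the receptor that binds ICAMs when lymphocytes arrest and form synapses, was 665, 620 and 567 CPM in WT against 638, 608 and 634 CPM in the knockout. The Top3b-KO libraries lay inside the WT range. The log2 fold change was 0.022 (SE 0.069), with a 95% interval from 0.918-fold to 1.12-fold.

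Itgb2, the beta chain whose loss causes leukocyte adhesion deficiency, was 427, 409 and 362 CPM in WT against 378, 377 and 385 CPM in the knockout. Its knockout values again fell inside the WT range and spread less, at a coefficient of variation of 1.23% against 8.44%. The log2 fold change was -0.072 (SE 0.069), and the interval ran from 0.860-fold to 1.05-fold.

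Itgax was 108, 103 and 96.0 CPM in WT against 85.7, 94.6 and 89.9 CPM in the knockout. Every WT library was above every Top3b-KO library, with 96.0 CPM in WT replicate 3 and 94.6 CPM in Top3b-KO replicate 2 as the nearest values. The log2 fold change was -0.18 (SE 0.070), a ratio of 0.882, with an unadjusted p of 0.019 and an adjusted p of 0.84 by edgeR. It was lower in 3 of 3 knockout libraries. Leaving out 1 library moved the log2 fold change to between -0.22 and -0.14. The unadjusted p by edgeR was then 0.070, 0.045 and 0.0021 without WT replicates 1, 2 and 3. It was 0.12, 0.020 and 0.051 without knockout replicates 1, 2 and 3.

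Markers of cells known for Itgax were low to moderate. The summed level of 9 conventional dendritic cell markers was 98.2, 96.4 and 90.3 CPM in WT against 90.2, 92.6 and 79.3 CPM in the knockout. Of these 9 markers 7 had log2 fold changes below 0, with a median of -0.099, and 0 passed edgeR's adjusted p of 0.05 or an unadjusted p under 0.05. Natural killer markers, 8 genes, summed to between 276 and 336 CPM in WT against between 266 and 311 CPM in the knockout, with 7 of 8 below 0 and 1 of 8, Klrb1c, lower at an unadjusted p under 0.05 (log2 fold change -0.28, adjusted p 0.83 by edgeR). Of 10 red pulp macrophage markers 8 were below 0, with a median of -0.10, and at an unadjusted p under 0.05 there were 3 lower and 1 higher. At that level 3.69% of all tested genes were lower and 5.52% passed in either direction. The sum of these 10 macrophage markers was 594, 537 and 522 CPM in WT against 530.5, 503 and 464 CPM in the knockout. Hmox1, encoding heme oxygenase, had the smallest p of these (log2 fold change -0.55, adjusted p 0.78 by edgeR). None of the 9 dendritic markers was at 0 counts in all libraries. The 9 monocyte markers summed to 596 ± 50.3 CPM in WT against 600 ± 72.2 CPM in the knockout (SD, n = 3). Of them 4 were above and 5 below 0, with a median of -0.012. Fewer cells of a type and less RNA per cell cannot be told apart in bulk RNA, and the part of these cells in the Itgax values was not tested.

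Itgam, whose product clears complement-coated particles as a phagocyte receptor, was 22.8, 19.9 and 23.5 CPM in WT against 22.2, 23.9 and 29.2 CPM in the knockout. The genotypes overlapped, and Top3b-KO replicate 3 stood highest. The log2 fold change was 0.17 (SE 0.110; adjusted p 0.91 by edgeR), and it was 0.061 with Top3b-KO replicate 3 left out, 0.098 without WT replicate 2 and 0.26 when knockout replicate 1 was left out. Top3b-KO replicate 3 was also highest for the sum of 11 neutrophil markers, at 1746 CPM against 610 to 1303 CPM in the other 5, and for 9 monocyte markers, at 678 CPM against 536 to 633 CPM. WT replicate 2, lowest for Itgam, had the next highest neutrophil sum, 1303 CPM, and a monocyte sum of 617 CPM. The part of these cells in the Itgam values was not tested.

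Itga4 was the member with the most CPM before division by length, at 592, 658 and 706 CPM in WT against 663, 738 and 708 CPM in the knockout. The groups overlapped, with WT replicate 1 lowest. The log2 fold change was 0.11 (SE 0.073), with an interval from 0.969-fold to 1.2-fold.

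Itgb7 was 423, 383 and 333 CPM in WT against 393, 367 and 383 CPM in the knockout, so the knockout libraries lay within the WT range. Its log2 fold change was 0.0037 (SE 0.078). Itgb1, the common beta chain of matrix receptors, was 316, 280 and 324 CPM in WT against 334, 317 and 272 CPM in the knockout, with a log2 fold change of 0.0074 (SE 0.079). The lowest Itgb1 value was that of Top3b-KO replicate 3 and the highest that of Top3b-KO replicate 1. Neither gene had a stable sign: total-count scaling gave -0.0079 for Itgb7 and -0.0045 for Itgb1.

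Itgae, which marks intraepithelial-type T cells and cross-presenting dendritic cells, was 51.2, 44.1 and 40.3 CPM in WT against 42.2, 51.6 and 52.7 CPM in the knockout. Each genotype held low and high libraries, and the log2 fold change was 0.11 (SE 0.10). Leaving out 1 library moved it to between 0.028 (WT replicate 3) and 0.21 (knockout replicate 1).

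Itgb3 was 84.3, 83.8 and 81.3 CPM in WT against 84.3, 89.0 and 90.7 CPM in the knockout. The nearest libraries, WT replicate 1 and Top3b-KO replicate 1, were at 84.27 and 84.29 CPM, and with total-count scaling the genotypes overlapped (84.66 and 84.14 CPM), whereas those of Itgax stayed apart. The log2 fold change was 0.081 (SE 0.067), the adjusted p by edgeR was 0.93, and the interval ran from 0.960-fold to 1.17-fold. Itgb3 had the smallest spread of the 10 genes, a coefficient of variation of 4.17% over the 6 libraries.

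Itga2b had few counts, between 81 and 175 per library. It was 7.49, 8.0 and 6.28 CPM in WT against 7.17, 6.69 and 8.19 CPM in the knockout, with full overlap. Its log2 fold change was -0.00052 (SE 0.146), and the interval from 0.809-fold to 1.24-fold shows how wide a difference these counts leave undetected. Of 11 platelet and megakaryocyte markers 6 were too low to test, among them Pf4 with 0 to 9 counts per library and Ppbp with 0 to 3. The other 5 were tested, with a summed level between 20.5 and 28.0 CPM, carried mainly by Gp1ba at 18.4 ± 0.723 CPM in WT against 17.3 ± 2.48 CPM in the knockout (SD, n = 3).

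**Figure D3:**
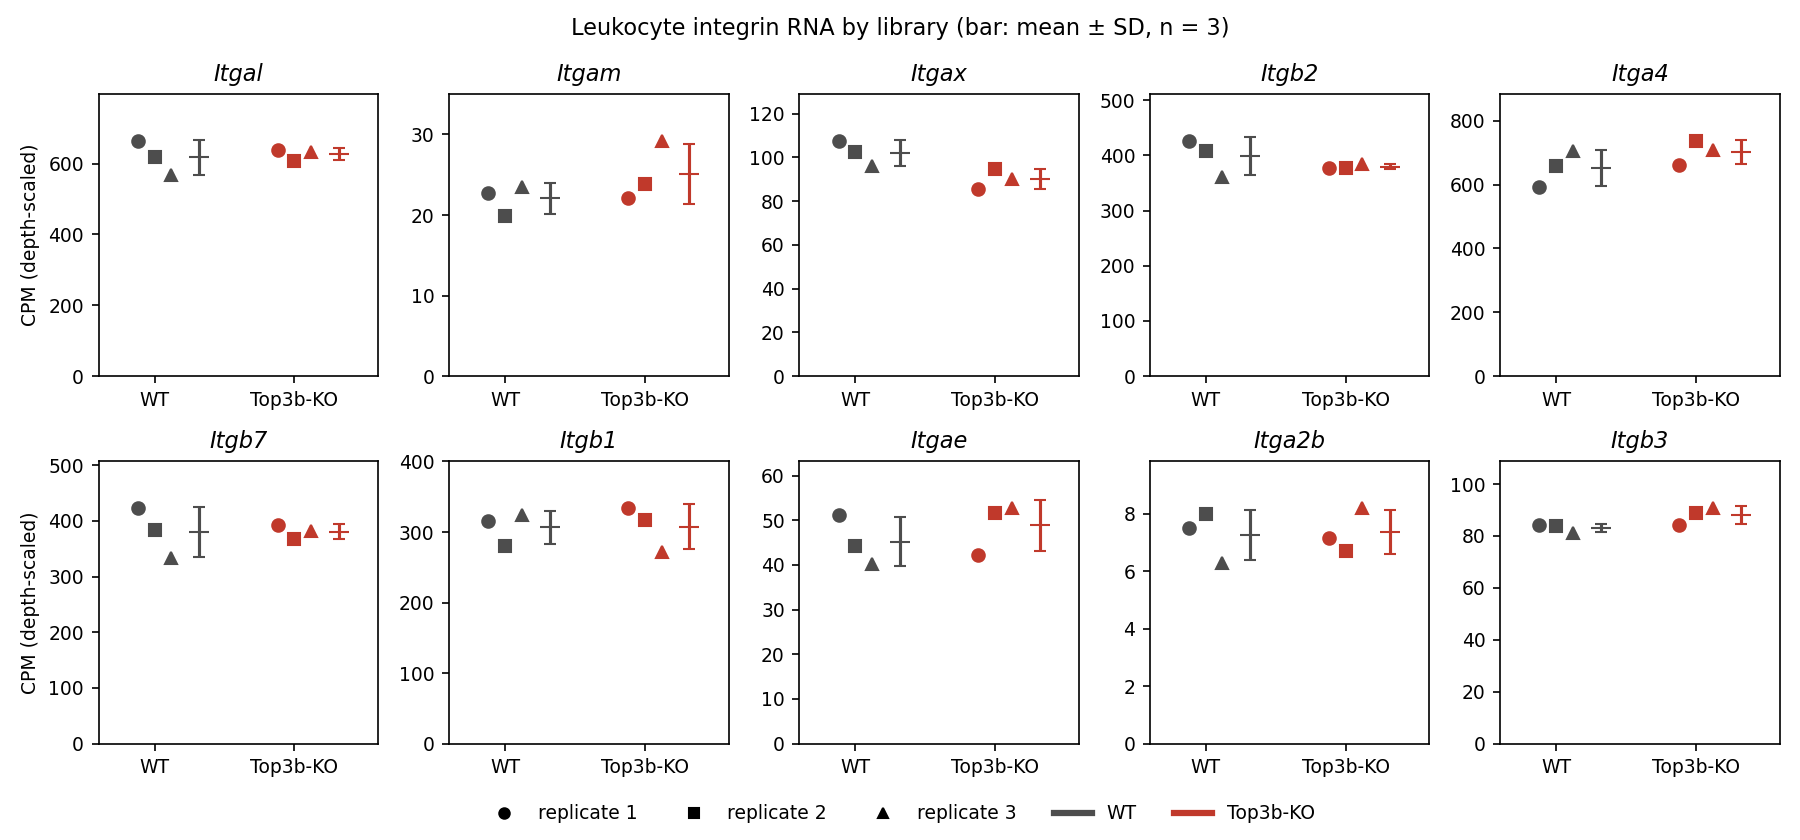
CPM of each of the 10 integrin genes by library (vertical axis from 0), WT in grey and Top3b-KO in red, marker shape giving the replicate number and the bar the mean ± SD of 3 libraries. Genotypes overlap in 8 panels, Itgax is lower in each Top3b-KO library, and the Itgb3 groups lie apart by 84.27 against 84.29 CPM, a gap that total-count scaling closes.

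Subunit balance was compared within each library as the log2 ratio of alpha to beta CPM, which no library scaling affects. Ratios per kb use the longest coding transcript, and their level shifts with the length used, while log2 differences between genotypes do not. Over all annotated exons, Itgal stood at 94.7 CPM per kb against 128 for Itgb2, and Itga4 at 48.5 against 75.3 for Itgb1. Per kb, Itgal RNA came to 0.880 ± 0.0154 of Itgb2 RNA in WT against 0.939 ± 0.0212 in the knockout (SD, n = 3). Its log2 ratio was 0.64, 0.60 and 0.65 in WT against 0.76, 0.69 and 0.72 in the knockout, higher in 3 of 3 knockout libraries. The difference of 0.093 had an exact permutation p of 0.1, the smallest that 3 against 3 allows, and 0.7 after Benjamini-Hochberg adjustment over 7 heterodimers. It lay between 0.076 and 0.11 when each library was left out.

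The other 6 ratios overlapped between genotypes. Itgax to Itgb2 was 0.188 ± 0.00588 per kb in WT against 0.174 ± 0.00931 in the knockout, a log2 difference of -0.11 (two-sided exact permutation p = 0.2, n = 3). Itgam to Itgb2 was 0.0353 ± 0.00530 and 0.0419 ± 0.00565, subject to the shared exons above, with a log2 difference of 0.25 (exact permutation p = 0.3). The alpha4 chain came to 0.834 ± 0.0941 of Itgb1 in WT against 0.90 ± 0.120 in the knockout, and to 0.479 ± 0.0986 and 0.508 ± 0.0448 of Itgb7. Itgae was 0.0830 ± 0.00235 of Itgb7 in WT against 0.0898 ± 0.0129 in the knockout. Itga2b was 0.147 ± 0.0155 of Itgb3 in WT against 0.141 ± 0.0129 in the knockout, so beta3 RNA was several times its platelet partner in every library. AlphaV (Itgav), the other partner of beta3, stood at 92.2 ± 3.86 CPM in WT against 94.7 ± 1.61 CPM in the knockout.

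**Figure D4:**
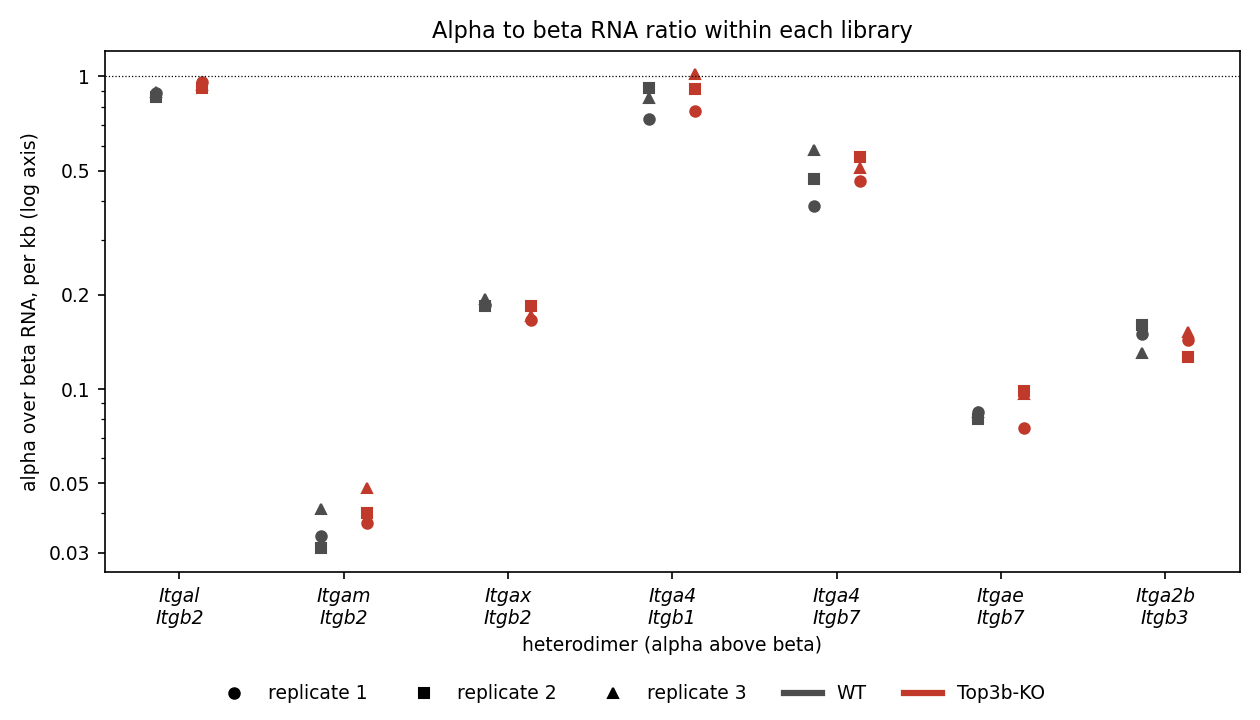
Ratio of alpha to beta RNA per kb of longest coding transcript within each library (vertical log axis) for 7 known heterodimers. WT is in grey and Top3b-KO in red, with marker shape giving the replicate number. The dotted line marks equal levels per kb, and the height of each pair shifts with the length used. The Itgal to Itgb2 ratio is 0.880 in WT against 0.939 in the knockout with no overlap, and the other pairs overlap.

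The shares of chains that compete for a partner were also compared. Itgb7 made up 63.7 ± 3.71% of Itgb7 plus Itgb1 per kb in WT against 63.8 ± 2.45% in the knockout (two-sided exact permutation p = 1, n = 3). Itgal made up 80.2%, 80.0% and 79.1% of the Itgal, Itgam and Itgax total in WT against 82.5%, 80.4% and 81.0% in the knockout. That difference of 1.53 percentage points had an exact permutation p of 0.1 and no overlap between genotypes, and it was 0.915 points when knockout replicate 1 was left out. With lengths cut to exon bases that no other gene shares, an alternative chosen after seeing the data, it was 0.684 points (exact permutation p = 0.6) and the genotypes overlapped. Itgad, a further beta2 partner, was left out of the total, although at 10.2 CPM per kb it stood above Itgam at 5.04.

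Across the 6 libraries, Itgal and Itgb2 varied in the same direction, with a Pearson r of 0.77 (exact permutation p = 0.068, 0.25 adjusted over 7 pairs) and a Spearman rho of 0.77 (p = 0.10, 0.36 adjusted). Without WT replicates 1 and 3, the libraries farthest from the Itgal median, r was -0.11. The r of 0.77 thus depends on these 2 libraries, whose omission also narrows the range of Itgal. Itga4 and Itgb7 varied oppositely, with r of -0.77 (exact permutation p = 0.089, 0.25 adjusted) and rho of -0.77 (p = 0.10, 0.36 adjusted), and r was -0.61 without WT replicate 1 and Top3b-KO replicate 2. Itgax and Itgb2 had r of 0.72 (exact permutation p = 0.11, 0.25 adjusted) and rho of 0.49 (p = 0.36, 0.70 adjusted), with r of 0.50 without WT replicate 1 and Top3b-KO replicate 1. For deviations from the genotype means, r was 0.94 for Itgal and Itgb2, -0.94 for Itga4 and Itgb7 and 0.72 for Itgax and Itgb2. It was between -0.13 and 0.56 for the remaining 4 pairs, and no p was computed for these values. The remaining 4 pairs had r between -0.31 and 0.49, and between -0.85 and 0.069 without the 2 libraries farthest from the alpha chain's median. Among them Itga2b and Itgb3 went from 0.42 to -0.85 and Itgae and Itgb7 from 0.49 to 0.069, and 0 of 7 passed after adjustment.

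The WT libraries differed in the same order for several members. Among the WT libraries, Itgal, Itgb2, Itgb7, Itgax, Itgae and, by a small margin, Itgb3 were highest in replicate 1 and lowest in replicate 3. Itga4 was lowest in WT replicate 1 and highest in WT replicate 3. The summed T cell markers were 1388, 1276 and 1224 CPM in WT replicates 1, 2 and 3, and the summed B cell markers 3690, 4251 and 4319 CPM. The corresponding Top3b-KO sums were 1408, 1372 and 1348 CPM for T cells and 3878, 3970 and 4041 CPM for B cells. All 8 T cell markers were above 0, and 2 of 8 had an unadjusted p under 0.05, with the smallest for Cd3e (log2 fold change 0.17, adjusted p 0.83 by edgeR). Of 8 B cell markers 7 were below 0, and 1, Blk, had an unadjusted p under 0.05 (log2 fold change -0.18, adjusted p 0.84 by edgeR). Of all tested genes, 5.52% passed that unadjusted level in either direction and 3.69% were lower at it. The part of the cell mix in the integrin values was not tested.

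Likeness of pattern was ranked by Pearson r of log2 CPM over the 6 libraries among the 9101 other genes averaging 10 CPM or more (9102 for Itga2b, itself below that level). The genes most like Itgal were Ccdc88c, Agap3 and Notch1, each at r of 0.99. For Itgb7 they were Galnt10, Klc1 and Evl, for Itgb2 Chmp2a, Haus4 and Rnf187, and for Itgax Ddx49, Cdc42ep4 and Ormdl3, at r between 0.98 and 1.00. Itgam was nearest to Nipsnap1, Frmd4a and Clec4a3, the last a myeloid lectin receptor, at r of 0.99, 0.99 and 0.98. With 6 libraries such values are common: between 45 and 269 genes per member reached r of 0.9.

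Of 17 other integrin genes 16 were tested, 8 above and 8 below 0. Their log2 fold changes ran from -0.23 to 0.45 with a median of -0.013, and 0 passed edgeR's adjusted p. At an unadjusted p under 0.05 there was 1 of 16, where 5.52% of all tested genes passed in either direction. That gene was Itga6, a laminin receptor chain, at 108, 104 and 102 CPM in WT against 116, 118 and 121 CPM in the knockout. Its groups did not overlap, and the log2 fold change was 0.17 (SE 0.064, adjusted p 0.83 by edgeR). Itgad, the fourth beta2 partner, was 43.2 ± 4.35 CPM in WT against 40.6 ± 1.56 CPM in the knockout (SD, n = 3).

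Ligands of these receptors were measured where spleen cells make them. Of 20 ligand genes 13 were tested, 4 above and 9 below 0, with a median log2 fold change of -0.063. By edgeR 0 passed the adjusted p, and 1 of 13 was lower at an unadjusted p under 0.05, where 3.69% of all tested genes were. Icam2, a ligand of the Itgal receptor, was that gene, at 35.5 ± 0.767 CPM in WT against 31.2 ± 2.05 CPM in the knockout (SD, n = 3), with an adjusted p of 0.88 by edgeR. Vcam1, the ligand of alpha4 beta1, was 122 ± 8.83 and 121 ± 12.3 CPM. Madcam1 had 0 to 6 counts per library and fibrinogen genes 0 or 1.

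Genes of inside-out activation ready integrins for binding. Of 26, 24 were tested, 12 above and 12 below 0, with log2 fold changes from -0.44 to 0.15 and a median of 0.0076, and 0 passed edgeR's adjusted p (2 of 24 at an unadjusted p under 0.05, both lower, where 3.69% of all tested genes were). Of the kindlin genes, Fermt1 and Fermt2 had 0 counts in all 6 libraries, and Fermt3, encoding kindlin-3, was among the 24 tested. Tln1, encoding talin, was 1215 ± 141 CPM in WT against 1237 ± 16.1 CPM in the knockout, and the actin crosslinker gene Flna 1867 ± 122 and 1853 ± 75.7 CPM (SD, n = 3). Rap1gap, encoding a protein that switches Rap1 off, had the smallest p of the list, with a log2 fold change of -0.44 (SE 0.183, adjusted p 0.86 by edgeR) at 8.15 ± 1.84 and 5.99 ± 1.17 CPM.

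For outside-in signalling 24 of 27 genes were tested, 8 above and 16 below 0, with a median of -0.028. By edgeR 0 passed the adjusted p, and 1 of 24 was lower at an unadjusted p under 0.05, where 3.69% of all tested genes were. Syk, the tyrosine kinase downstream of beta2 integrins, had a log2 fold change of -0.057 and Ptk2b, encoding the focal adhesion kinase relative Pyk2, one of 0.026. Lateral membrane partners, 13 genes, had 3 above and 10 below 0, a median of -0.042 and 0 calls by edgeR (0 at an unadjusted p under 0.05). The tetraspanin gene Cd37 had -0.13 (adjusted p 0.91 by edgeR) and Cd47 0.034. Transcription factors and TGF-beta pathway genes known to act on integrin genes, 14 in all, had 6 above and 8 below 0, a median of -0.022 and 0 calls by edgeR (2 of 14 at an unadjusted p under 0.05, both lower, where 3.69% of all tested genes were), with Gata2 at -0.43 (adjusted p 0.83 by edgeR), Sp1 at 0.11 and Tgfbr2 at 0.014.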

How the data were processed

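Total RNA of 6 splenocyte libraries was sequenced after ribosomal RNA depletion. The authors deposited expected counts per gene symbol, after alignment to mm39 with STAR, per the submitters' processing notes. No source used here gives the counting program, strand setting or annotation. Values were rounded to whole numbers (72 symbols were not whole within 1e-06).

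Genes were kept by edgeR's filterByExpr (18716). Genotypes were compared by the quasi-likelihood F test of edgeR 4.0.16 in R 4.3.3, using TMM factors, robust dispersion and no term but genotype, two-sided, Benjamini-Hochberg over all tested genes, threshold 0.05. For single measures, permutation tests were exact and two-sided, with 0.1 the smallest p of 3 against 3. Alternatives used DESeq2 1.42.0, limma 3.58.1, other scalings and filters, a replicate block, thinning and leaving out libraries. Log2 CPM values add a prior count of 2. Total counts set the precision: 3 counts equal 0.118 to 0.302 CPM, for counting error only.

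The members and lists were chosen with earlier results of these data known. Named genes were all members, the 2 most abundant and the smallest p-value of a list (not all are printed), and the 3 most alike per member. Transcript lengths came from GENCODE M21 and promoters from RefSeq, both on GRCm38, a build other than the mm39 of the counts. No position was joined to the counts.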

Additional observations from a re-analysis of the deposited data

How the results depend on the processing

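Under all 15 alternatives 0 of 10 integrin genes passed an adjusted p of 0.05. When a library was left out, 0 to 3 of 10 had an unadjusted p under 0.05 by edgeR. The 3 were Itgax, Itgb2 and Itga4 without WT replicate 3, where 2520 of all genes were under it. Counts of all genes called were 2 in the main test, 44 with no filter, 41 with the replicate block, 6 with DESeq2, 1 each with limma-voom, robust=FALSE and thinning, and 1 to 32 when a library was left out (32 without WT replicate 3, 9 without Top3b-KO replicate 1). Itgax was lower in all 15 (log2 fold change -0.22 to -0.14), with an unadjusted p under 0.05 in 12 and adjusted p from 0.14 to 1.00. Under the replicate block its log2 fold change was -0.18 with an adjusted p of 0.58. The labels give genotype as the only factor, so the replicate numbers were not taken as pairs in the main test. For libraries of the same number, deviations from the genotype means had correlations of 0.16, -0.0067 and 0.0093. For libraries of different number they ran from -0.080 to 0.078. The value of 0.16, for replicates 1, lay above that range, so these correlations do not settle whether libraries were paired. The log2 fold changes of 4 genes changed sign. Itgb7 was -0.0079 and Itgb1 -0.0045 with total-count scaling, Itgb1 was -0.034 after thinning, and Itga2b was 0.0082 with no filter and 0.0027 with DESeq2. When a library was left out, the range was -0.037 to 0.076 for Itgal, -0.14 to -0.023 for Itgb2, 0.041 to 0.17 for Itga4, -0.083 to 0.085 for Itgb7, -0.054 to 0.086 for Itgb1 and -0.097 to 0.075 for Itga2b. The log2 ratio difference then ranged from -0.048 to 0.25 for Itga4 to Itgb7 and from -0.15 to 0.012 for Itga2b to Itgb3, and the Itgb7 share difference from -2.0 to 1.33 percentage points. For these shifts the cause was not tested. Depth is most limiting for Itga2b, with 81 counts in Top3b-KO replicate 3.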
